A study of Homo sapiens with 4 samples.

Results

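The lincRNA transcripts examined here are the rows that the deposited table of MDA-MB-231 RNA-seq types as lincRNA, without the genes whose symbol starts with SNHG, which are hosts of small nucleolar RNAs. They were 1037 transcripts of 773 genes among 43596 transcripts of 15113 gene symbols, and 31 SNHG transcripts of 9 genes were left out. MDA-MB-231 is an established human triple-negative breast cancer line. The study treated it for 24 h with the vehicle DMSO or with 10 µM KH-3, a small molecule that inhibits the RNA-binding protein HuR, with 2 libraries in each group, to see which RNAs respond to the inhibitor. The study's methods call the 2 libraries of a condition biological replicates. They also name a group with a lower dose of KH-3, which is not analysed here. The only level in the table is the authors' mean normalized read count over libraries, and which libraries enter it, those of the lower dose included, is not stated. The values below therefore describe the libraries of the authors' mean together, without regard to treatment, with no spread between replicates, no known depth and no test, and they make no comparison of KH-3 with DMSO. In a bulk culture, the number of cells that hold a transcript and the RNA in each cell cannot be told apart.

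Long intergenic noncoding RNAs are transcribed by RNA polymerase II, are often spliced and polyadenylated like mRNAs, and have no long open reading frame. Some build nuclear structures, some bind proteins or microRNAs in the cytoplasm, some are the primary transcripts from which microRNAs are cut, and for most no function is known. HuR binds U- and AU-rich stretches of RNA, of which the pentamer AUUUA is the classical core, and several long noncoding RNAs are known HuR partners.

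Markers of the line were checked against its label. All 6 mesenchymal and breast cancer cell markers were listed, with summed mean counts from 300.2 for SPARC to 21693 for VIM. The hormone receptor genes ESR1 and PGR had no listed transcript, whereas the luminal factors GATA3 and FOXA1 were listed at 83.5 and 113. Among markers of other cell types, PTPRC and ALB had no listed transcript and PECAM1 was listed at 27.9.

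Sequence windows of some lincRNAs are shown first, from hg38 and 5′ to 3′ along the RNA. NORAD, the lincRNA with the most reads, is a cytoplasmic RNA known for binding Pumilio proteins, whose element is UGUANAUA. The 2 windows below are shown because NORAD and HCG11, a listed lincRNA of another chromosome, share this stretch. Capitals mark matches to UGUANAUA, with T for U in the DNA letters. They lie at chr20:36049482-36049741 on the minus strand and at chr6:26522923-26523180 on the plus strand.
NORAD: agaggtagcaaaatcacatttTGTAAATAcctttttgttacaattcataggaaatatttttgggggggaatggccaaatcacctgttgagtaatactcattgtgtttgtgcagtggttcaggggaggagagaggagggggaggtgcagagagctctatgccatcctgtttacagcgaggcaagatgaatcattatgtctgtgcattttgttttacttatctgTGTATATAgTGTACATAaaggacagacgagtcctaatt
HCG11: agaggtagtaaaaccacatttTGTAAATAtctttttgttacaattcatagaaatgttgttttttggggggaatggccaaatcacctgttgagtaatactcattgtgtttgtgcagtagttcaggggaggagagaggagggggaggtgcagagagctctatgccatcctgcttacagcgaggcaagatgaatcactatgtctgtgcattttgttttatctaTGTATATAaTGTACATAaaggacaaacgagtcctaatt
Each window of 260 and 258 bases held 3 matches, and 92.8% of 263 aligned columns were identical.

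The next windows come from NEAT1 and MALAT1, neighbouring genes on chromosome 11 that make nuclear RNAs. They are shown because each is a dense run of the AU-rich pentamer within its transcript, with AUUUA, again with T for U, in capitals. They lie at chr11:65433994-65434113 and chr11:65500002-65500121, both on the plus strand, and hold 4 and 3 matches in 120 bases each. A match describes the letters and is not evidence of binding.
NEAT1: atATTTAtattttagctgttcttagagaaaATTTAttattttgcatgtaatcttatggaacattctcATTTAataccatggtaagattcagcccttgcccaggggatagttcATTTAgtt
MALAT1: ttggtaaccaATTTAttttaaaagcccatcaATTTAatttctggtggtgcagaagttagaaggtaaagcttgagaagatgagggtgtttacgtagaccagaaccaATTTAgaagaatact

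A selection of the mature microRNAs encoded within lincRNA hosts is shown from RefSeq (GRCh38.p14), to compare their seeds, bases 2 to 8, which are in capitals. The first 6 share the let-7 seed, the next pair the miR-100 seed, miR-4435 comes from 2 hosts, and the last pair share the miR-221 seed within 1 host. The 3p arms of let-7, whose seed recurs too, and other pairs within 1 host are not printed.
let-7a-5p: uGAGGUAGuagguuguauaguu
let-7b-5p: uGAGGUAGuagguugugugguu
let-7c-5p: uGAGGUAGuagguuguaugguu
let-7d-5p: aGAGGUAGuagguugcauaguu
let-7f-5p: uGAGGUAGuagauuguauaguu
let-7i-5p: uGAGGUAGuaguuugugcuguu
miR-100-5p: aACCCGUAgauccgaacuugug
miR-99a-5p: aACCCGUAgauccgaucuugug
miR-4435: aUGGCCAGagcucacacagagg
miR-221-3p: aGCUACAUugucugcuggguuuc
miR-222-3p: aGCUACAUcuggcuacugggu

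Most lincRNA transcripts had few reads and a handful had many. The mean normalized read count had a median of 20.6 with quartiles of 11.8 and 45.6, and ran from 7.35 to 8329. Of the 1037 transcripts, 508 (49.0%) were under 20, 121 (11.7%) were at 100 or more and 7 were at 1000 or more. The lowest count of any type in the table was 7.34, so transcripts with fewer reads are not listed and the true lower end of the distribution is not seen. LincRNA transcripts made up 2.38% of all rows and 0.571% of the summed mean count. The 10 transcripts with the most reads, from 9 genes, held 32.4% of the lincRNA sum, and NORAD alone held 11.9%.

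Length ranged from 255 to 37027 bases, with a median of 1328 and quartiles of 699 and 2389. Longer transcripts had more reads but fewer reads per kilobase, where reads per kilobase is the mean count divided by the transcript length of the table. The rank correlation of length with mean count over the 1037 transcripts was 0.31, and that of length with reads per kilobase was -0.41. Length stands in the denominator of the second measure, and a short transcript needs more reads per kilobase to be listed at all, so the second value is partly set by its construction. The 76 transcripts of up to 500 bases had a median count of 15.9 and a median of 37.3 reads per kilobase. The 359 above that and up to 1000 bases had medians of 14.8 and 21.8, and the 251 above 1000 and up to 2000 bases had 22.8 and 16.0. Among the 299 above 2000 and up to 5000 bases the medians were 30.7 and 10.3. In the 52 over 5000 bases they were 45.1 and 7.18, and 34.6% of these longest transcripts reached a count of 100, against 3.95% of the shortest class. The longest class held 25.5% of the lincRNA reads.

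**Figure D1:**
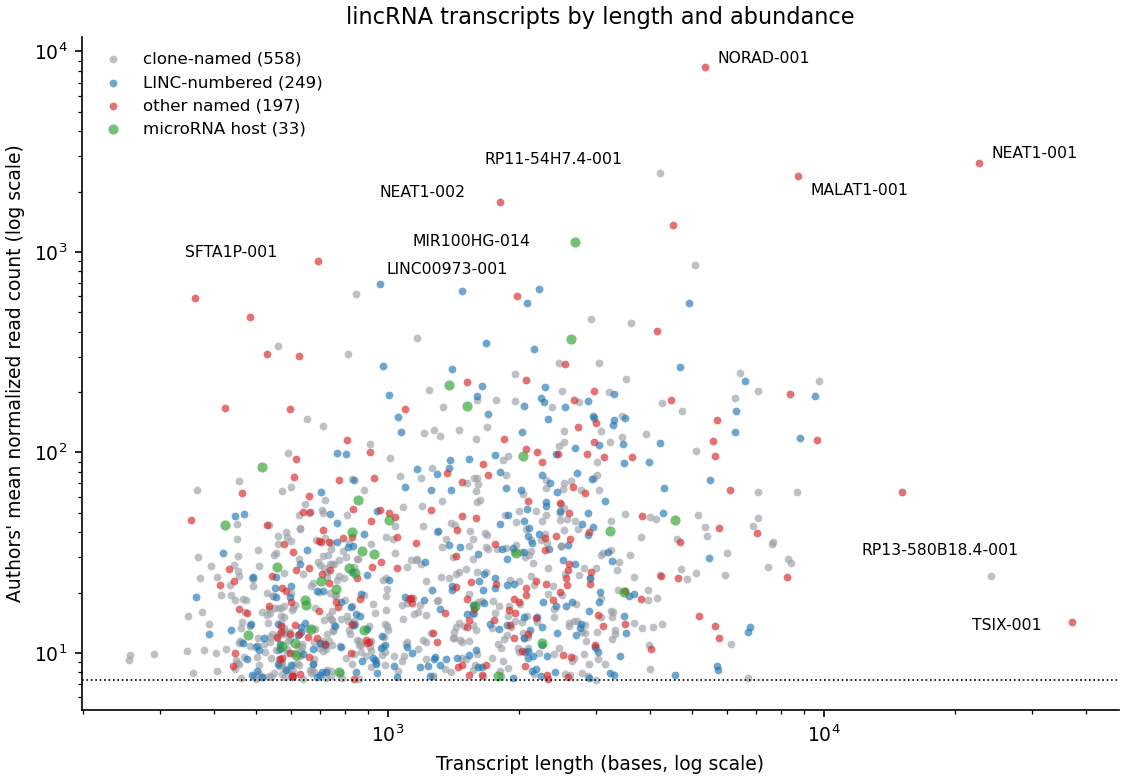
Transcript length in bases (horizontal, log scale) against the authors' mean normalized read count (vertical, log scale) for the 1037 lincRNA transcripts, 1 point each. Points are coloured by how the gene is named, and the dotted line marks the lowest lincRNA count of 7.35. NORAD stands at the top with 8329 reads, NEAT1-001 and MALAT1-001 are both long and high, and TSIX is the longest with 14.3 reads.

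The extremes of length were mostly low. The 3 shortest were RP11-290M5.2 with 255 bases and a count of 9.25, RP1-290I10.5 with 256 bases and 9.77, and AP000233.3 with 291 bases and 9.82. The longest was TSIX, the antisense RNA of the X-inactivation centre, with 37027 bases and a count of 14.3, or 0.385 reads per kilobase. The library kit does not mark strand, so reads of TSIX and of its antisense partner cannot be told apart. RP13-580B18.4 followed with 24137 bases and 24.2 reads. NEAT1-001, next in length with 22743 bases, differed from both in having 2790 reads.

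Compared with mRNAs, lincRNA transcripts were shorter, had fewer exons and took fewer reads. The 26348 protein-coding transcripts had a median count of 91.3, a median length of 2656 bases and 35.9 reads per kilobase, while the lincRNA medians were 20.6, 1328 and 18.4. The coding median was thus 4.44 times the lincRNA median by count and 1.95 times by reads per kilobase. Over the leading transcript of each gene, the coding median per kilobase was 4.75 times the lincRNA median. A count of 100 was reached by 48.2% of coding transcripts and 11.7% of lincRNA transcripts. The median transcript had 8 exons among coding transcripts and 3 among lincRNAs, and 22.4% of lincRNA transcripts had a single exon against 1.31% of coding ones. NORAD was an exception by read number, since only 72 coding transcripts (0.273%) had a larger mean count. The 932 antisense transcripts were the closest class, with a median count of 19.2, a median length of 1399, 16.9 reads per kilobase and 19.3% single-exon transcripts. Noncoding processed transcripts and retained introns of other genes had medians of 25.3 and 27.6 reads. These are descriptions of 1 pooled column, and no test of a difference between types was possible over libraries.

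**Figure D2:**
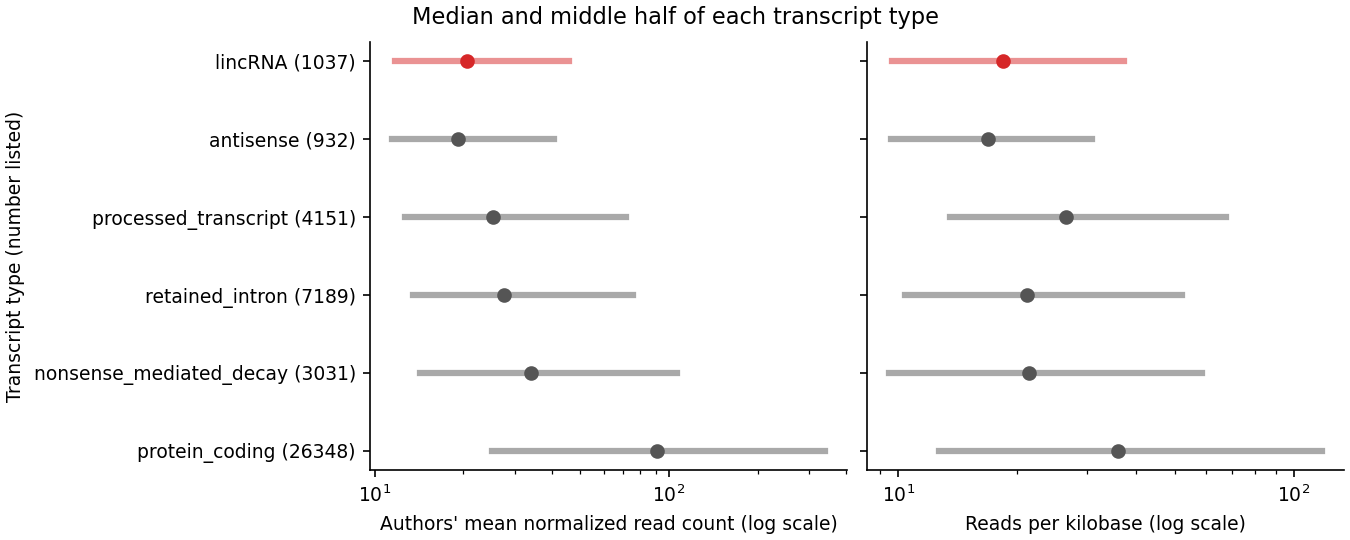
Median (point) and interquartile range (bar) of the authors' mean normalized read count (left) and of reads per kilobase (right), both on log scales, for 6 transcript types with the number listed in parentheses. LincRNA and antisense transcripts lie lowest, with medians of 20.6 and 19.2 reads, and protein-coding transcripts highest with 91.3.

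Among genes, reads were summed over the listed lincRNA transcripts of each. The 15 genes with the most reads held 41.6% of the lincRNA sum and the first 4 held 26.7%. They were 6 named genes, 4 LINC-numbered genes, 4 clone-named genes and 1 microRNA host. NORAD (chr20:36045618-36051018, minus strand), which binds Pumilio proteins and guards chromosome stability, had 8329 reads in 1 unspliced transcript of 5339 bases, or 1560 reads per kilobase. NEAT1 (chr11:65422774-65445540, plus strand), the scaffold of nuclear paraspeckles, had 5056 reads in 4 transcripts. MALAT1 (chr11:65497640-65508073, plus strand), an RNA of nuclear speckles, had 2827 reads in 4 transcripts. The mature 3′ ends of MALAT1 and of long NEAT1 are closed by a triple helix instead of a poly(A) tail, while the kit was one for mRNA. The share of these molecules that entered the libraries was not tested.

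Next to these well-studied RNAs stood genes with little or no known function and the microRNA host MIR100HG. The clone-named RP11-54H7.4 (chr13:109269634-109278512, plus strand; LINC03061 in GENCODE release 44) came after them with 2483 reads in 1 transcript of 4205 bases, more than 61 kb from the nearest protein-coding gene. SFTA1P, a surfactant-associated pseudogene RNA on chromosome 10, had 1955 reads in 4 transcripts of 361 to 693 bases. EBLN3P, a pseudogene RNA on chromosome 9, had 1424. MIR100HG, whose gene span holds miR-100, let-7a-2 and miR-125b-1, had 1176. CTD-2354A18.1 (LINC02582 in release 44) on chromosome 18 had 989, and RP4-555D20.2 on chromosome 3, still without a symbol in release 44, had 866 in 1 unspliced transcript of 5067 bases.

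The remaining genes of the first 15 lay within a narrow range of 586 to 731 reads. LINC00704, now named MANCR for a mitotically associated RNA, had 731, LINC01234 had 715 and LINC00973 had 689. LINC02170, now named ARLNC1, had 697. An exon of its main transcript overlaps a protein-coding exon on the same strand, and the origin of its reads was not tested. RP11-169F17.1 (LINC02864 in release 44) had 586.

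Per length, the order of the same genes was different. SFTA1P came first with 3685 summed reads per kilobase, followed by NEAT1 with 2103, NORAD with 1560, CTD-2354A18.1 with 1047 and MALAT1 with 947. RP11-54H7.4 had 591 and RP4-555D20.2 had 171. Among single transcripts with a count of at least 50, the 5 highest per kilobase were SFTA1P-005 with 1625, NORAD with 1560, SFTA1P-001 with 1299, NEAT1-002 with 985 and NEAT1-004 with 979. All but NORAD belong to genes with several overlapping transcripts, among which the authors' counting divided shared reads by a model.

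**Figure D3:**
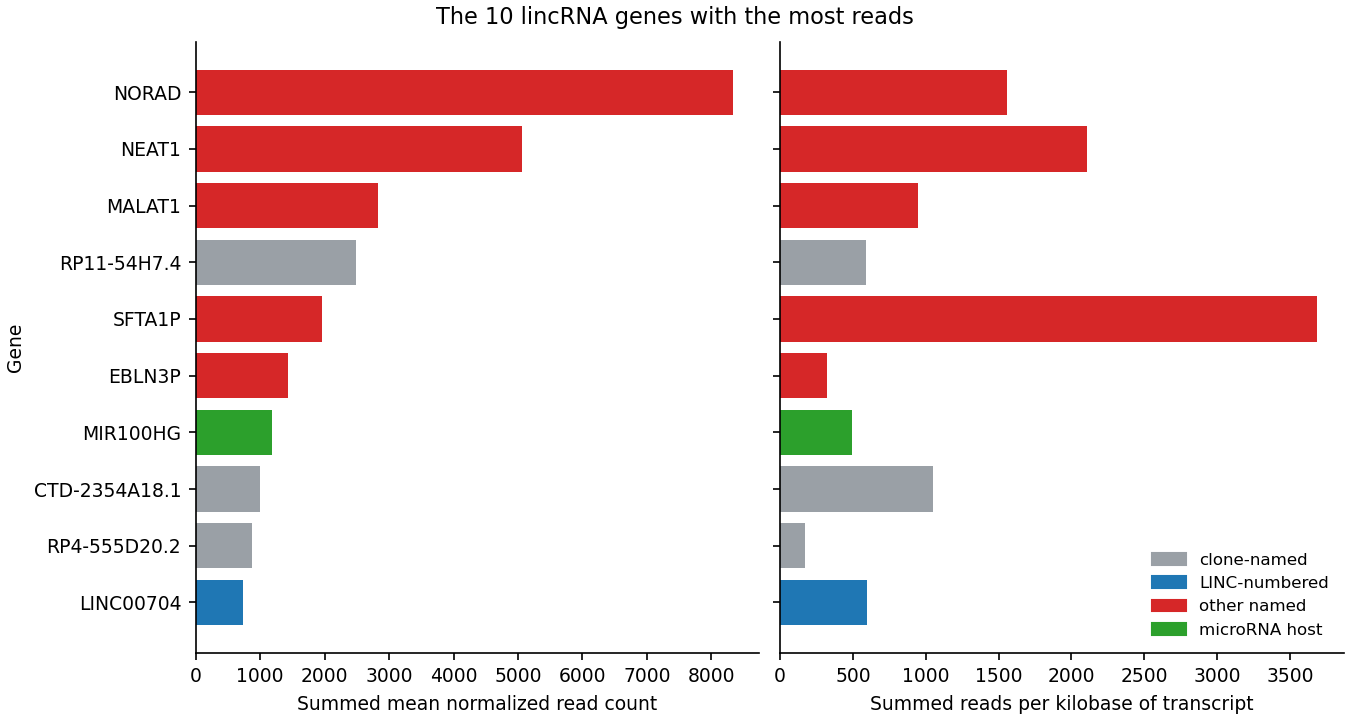
Summed mean normalized read count (left, linear axis from 0) and summed reads per kilobase (right, linear axis from 0) of the 10 lincRNA genes with the most reads, coloured by how the gene is named. NORAD has the longest bar by reads, 8329, and SFTA1P the longest per kilobase, 3685.

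Of the 773 genes, 616 (79.7%) had 1 listed lincRNA transcript, 99 had 2, 28 had 3, 22 had 4 and 8 had 5 or more. In the 157 genes with at least 2, the leading transcript held a median of 66.0% of the gene's reads. NEAT1 was divided between its long and short forms. NEAT1-001, the long form of 22743 bases on which paraspeckles are built, had 2790 reads, and NEAT1-002, a short form of 1811 bases, had 1783. NEAT1-004 and NEAT1-003 had 473 and 9.44. The long form had 1.56 times the reads of NEAT1-002, but NEAT1-002 had 8.02 times the reads per kilobase (985 against 123). NEAT1-002 is 3441 bases long in release 44, and with that length the ratio was 4.22. In release 44 the span of NEAT1-002 lies at the 5′ end of the gene, where the long form is transcribed too, so part of this ratio depends on how reads of the shared region were assigned.

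MALAT1 was simpler. MALAT1-001, with 8708 bases in the table, held 84.5% of the gene's reads (2390), and the other 3 transcripts had 224, 167 and 46.2. MIR100HG-014 held 95.2% of the reads of MIR100HG. At the other end, CRNDE, a gene first described in colorectal neoplasia, spread its 289.7 reads over 8 transcripts, of which the first held 21.6%, the lowest leading share of any gene. MIR4435-2HG had the most listed transcripts, 10, with 525 reads in all. MAPKAPK5-AS1 had 7, with 218 reads, and LINC01184 had 6, with 451. PVT1 and MIR100HG had 5 each.

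**Figure D4:**
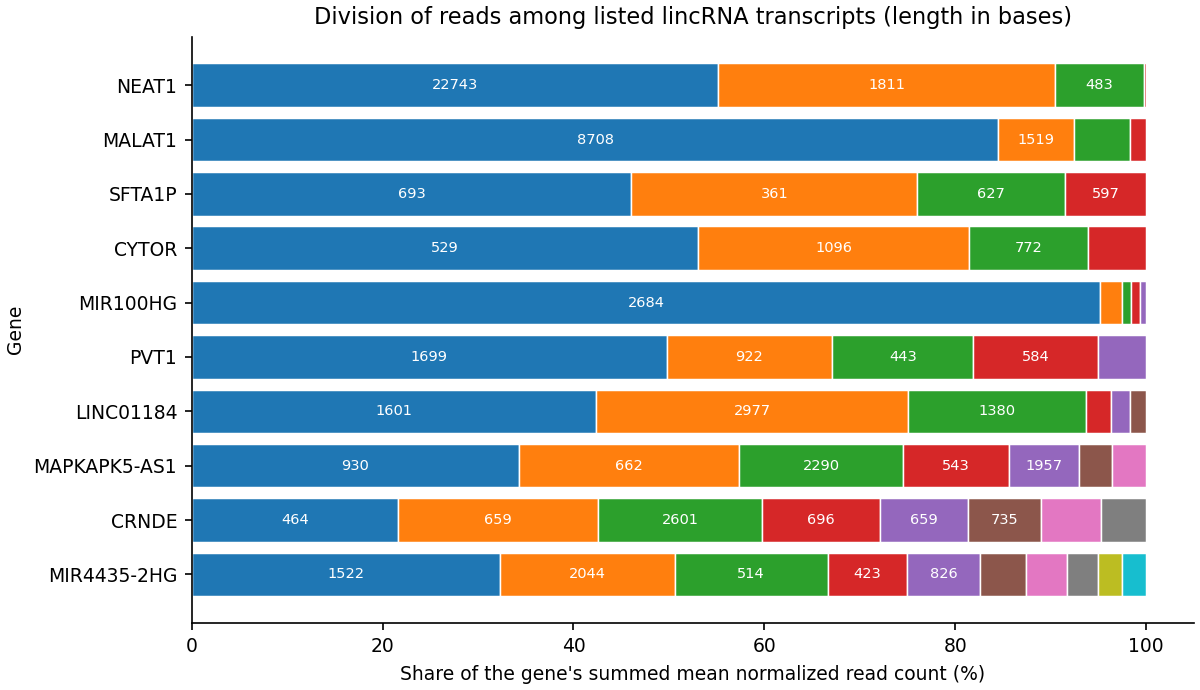
Share of each gene's summed mean normalized read count (%, horizontal) taken by its listed lincRNA transcripts in 10 genes, in order of count from left to right, with transcript lengths in bases written in the wider segments. MIR100HG is nearly all 1 transcript (95.2%), while the leading CRNDE transcript holds 21.6%.

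Clone-named genes were the most numerous, and their transcripts had the lowest median count. They are genes known by the name of the sequenced clone, such as RP11 or CTD names, and they gave 558 transcripts of 477 genes with a median count of 18.2, a median length of 1132 bases and 45 transcripts (8.06%) at 100 or more. Their 5 highest genes were RP11-54H7.4, CTD-2354A18.1, RP4-555D20.2, RP11-169F17.1 and RP11-147L13.11, the last with 464 reads. Single-exon transcripts made up 33.2% of them, against 9.27% of LINC-numbered transcripts. The 249 LINC-numbered transcripts of 164 genes were the longest, with a median of 1654 bases, and had a median count of 21.0 with 39 (15.7%) at 100 or more. After the 4 in the first 15, the highest LINC-numbered gene was LINC00261 with 556 reads, whose span lies 2355 bases from that of FOXA2, an endoderm transcription factor gene. The 197 other named transcripts of 118 genes had a median count of 25.9 and held 40.5% of the lincRNA reads. The 33 transcripts of 14 genes named as microRNA hosts were short, with a median of 853 bases, and had a median count of 26.6. Per kilobase the medians were 17.5 for clone-named, 17.3 for LINC-numbered, 22.0 for other named and 28.3 for microRNA host transcripts.

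Single-exon transcripts held more of the reads than their number, largely through a few transcripts. They were 230 of the 1025 transcripts found in release 44, from which exon numbers were taken, with a median count of 18.7 and a median length of 1894 bases, and they held 38.01% of the lincRNA reads. NORAD, NEAT1-001, RP11-54H7.4 and MALAT1-001 are all among them. Their 8329, 2790, 2483 and 2390 reads made up most of the 26637 in this class. The 259 transcripts with 2 exons and the 536 with 3 or more had median counts of 20.8 and 20.9.

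The Pumilio element set NORAD and HCG11 apart from the other lincRNAs in sequence. In the transcripts of release 44, UGUANAUA, searched on the sense strand with N as any base, occurred 15 times in the 5401 bases of NORAD and 16 times in the 5696 bases of HCG11, or 2.78 and 2.81 per kilobase. NEAT1-001, at 22743 bases, held 6, and MALAT1-001 none. Over the 711 lincRNA transcripts with the same length in the table and in release 44, 80 (11.3%) held the element at all, at 0.0738 per kilobase pooled, and NORAD had 37.6 times that density. Among 45 such lincRNA transcripts of 4000 to 6500 bases, which leave out NORAD and HCG11 since their lengths differ between releases, 28.9% held it, and the highest number was 5. Among 2174 coding transcripts of that length, 44.4% held it and the highest number was 9.

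Despite their likeness, NORAD and HCG11 differed widely in reads. NORAD had 8329 reads and 1560 per kilobase, and HCG11 (chr6:26521709-26527404, plus strand) had 94.6 reads and 30.2 per kilobase over the 3130 bases that the table gives it. The 2 sequences aligned with 90.5% identity over 4661 bases and 89.2% over another 808. Reads that fit both were divided by the authors' counting, and the count of HCG11 is uncertain for that reason. Examples of other pairs with the same doubt were CYTOR and MIR4435-2HG, 99.5% identical over 184 bases of their main transcripts, and FAM225A and FAM225B. The FAM225 pair were 98.5% identical over 5642 bases, with 161 and 13.6 reads. CH507-513H4.1 and CH507-528H12.1 on chromosome 21 had the same length, 2498 bases, and the same count, 33.95.

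AUUUA was common and went with length. In release 44 it occurred 102 times in TSIX, 47 in LINC01021-004, 46 in NEAT1-001, 38 in RP11-352M15.2, 23 in MALAT1-001 and 13 in NORAD. LINC01021-004 has 10301 bases in that release, but 1610 in the release used for counting. Over the 711 transcripts of unchanged length the median density was 1.07 per kilobase, and 32.2% held none. The same measures over 14062 coding transcripts of unchanged length were 0.912 per kilobase and 28.7%, at a median GC content of 48.5% against 47.4% in lincRNAs. At 4000 to 6500 bases, 97.8% of lincRNA and 92.6% of coding transcripts held it, with medians of 7 and 6 matches. SFTA1P-001, high per kilobase, held no AUUUA in its 710 bases. The run UUUUUUU, counted at every start within longer runs and sharing no base with AUUUA, occurred 40 times in NEAT1-001, 40 in MALAT1-001 and 9 in NORAD. Pooled over the 711 lincRNA transcripts it stood at 1.19 per kilobase, against 0.921 in coding transcripts. Antisense transcripts also stood at 1.19, so the density was not particular to lincRNAs. Whether HuR bound any of these RNAs was not measured in this table.

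**Figure D5:**
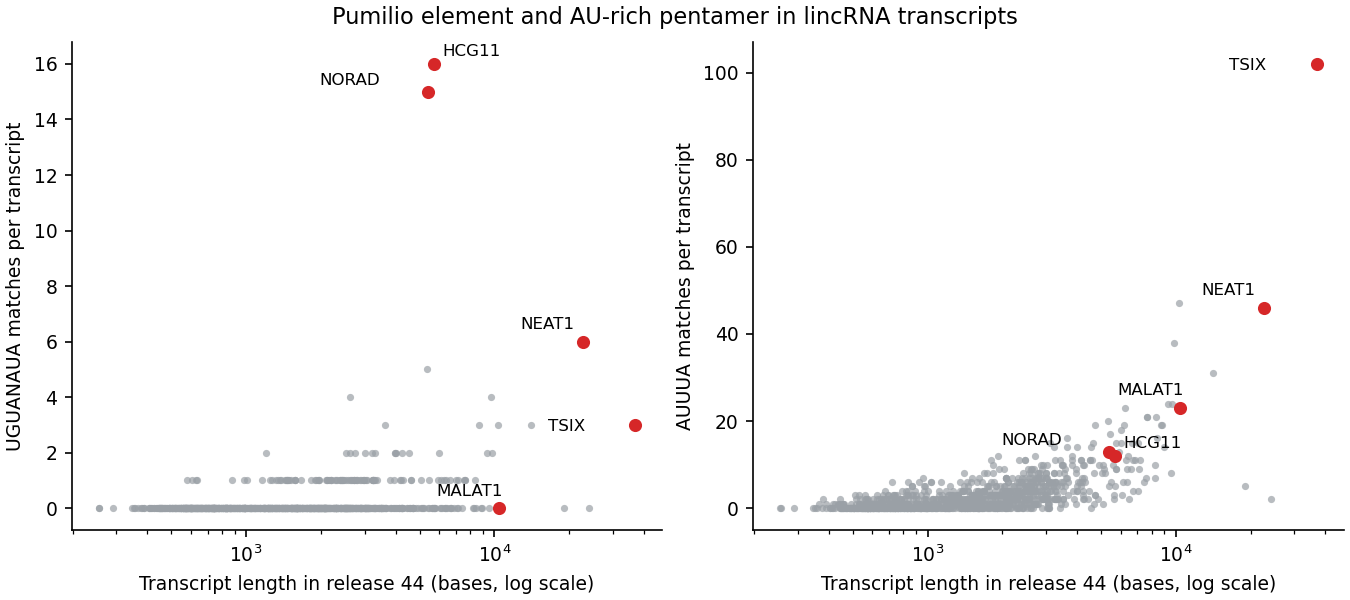
Number of sense-strand matches to UGUANAUA (left) and AUUUA (right) per lincRNA transcript against its length in release 44 (bases, log scale), 1 point for each transcript found there. NORAD and HCG11 stand alone at 15 and 16 matches on the left, while on the right they lie within the cloud at 13 and 12.

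MicroRNA hosts were found by position as well as by name. The search found 26 lincRNA genes with 1 or more of 48 microRNA hairpins inside their span on the same strand. It was not complete, since MIR22HG and MIR4458HG (86.4 reads), both named as hosts, were not among these genes. Further hosts may have been missed, and the values here hold only for the hairpins found. A gene's reads may also come from listed transcripts that do not span its hairpin. Of the 26 genes, 9 were among the 14 with a host name, 8 were clone-named, 3 LINC-numbered and 6 other named. The 26 had a median summed count of 60.8, against 23.9 for genes in which no hairpin was found. Of the 26, 9 were over 100. Among the hosts found, the one with the most reads was MIR100HG (1176), whose gene span holds the hairpins of let-7a-2, miR-100 and miR-125b-1. Its leading transcript, MIR100HG-014 with 1119 reads, spans the miR-125b-1 hairpin but not those of let-7a-2 and miR-100. The let-7 seed shown above was carried by 6 of the hosts found, MIR100HG among them. The others were MIRLET7BHG with 78.3 reads, RP11-631N16.2 with 63.8, RP11-2B6.2 with 24.7, RP11-631N16.4 with 21.4 and MIR99AHG with 20.2. The pair RP11-631N16.2 and RP11-631N16.4 overlap and share the same let-7i hairpin.

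CYTOR (583 reads), an RNA linked to the cytoskeleton and to cancer, and MIR4435-2HG (525) each have a copy of miR-4435 within their gene span. Its mature sequence is the same from both genes. All listed CYTOR transcripts end before the hairpin. The leading MIR4435-2HG transcript spans its copy, but some others do not. MIR222HG (217) holds miR-221 and miR-222, FTX (204) holds miR-421, miR-374a and miR-374b, and LINC00472 (151) holds miR-30a and miR-30c-2. The clone-named CTD-3252C9.4 (183) holds miR-23a, miR-27a and miR-24-2, and its exon overlaps a protein-coding exon on the opposite strand. MIR17HG, the host of the miR-17 to miR-92 cluster, had only 31.2 reads, and MIR22HG had 369. A host's reads measure the spliced or unspliced long RNA and not the mature microRNA, which these libraries do not capture.

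Of the groups of lincRNAs with a known role, both nuclear body RNAs and NORAD were listed far above the rest. Of RNAs from the X-inactivation centre, JPX was listed with 244 reads and FTX with 204, and TSIX, which was not on the list, with the 14.3 given above. Of 7 symbols linked to p53 and DNA damage, 2 were listed, TP53TG1 with 23.6 reads and LINC01021, now PURPL, with 49.9. Of 33 cancer-linked symbols, 16 were listed, with a median of 60.1 reads against 24.4 over all 773 genes. They ran from DANCR with 11.3 to MIR100HG with 1176. Between these lay CYTOR with 583, MIR22HG with 369, CRNDE with 289.7, LUCAT1 with 247, LINC00511 with 178 and PVT1 with 155. Lower still were LINC00460 with 62.1, MIR210HG, the host of a hypoxia microRNA, with 58.1, LINP1, which acts in DNA end joining, with 45.6, UCA1 with 32.7, MIR17HG with 31.2, LINC-ROR with 27.8, FIRRE with 25.3 and LINC00707 with 20.2. A symbol without a listed lincRNA transcript may stand under another transcript type or below the lowest listed count.

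By position, the name intergenic held for part of the genes. For the 742 genes found in release 44, 353 (47.6%) were more than 10 kb from any protein-coding gene and 148 (19.9%) had a span that touched one. A pair of diverging starts, with the lincRNA on the opposite strand and its start at most 1000 bases upstream or 100 bases inside the coding gene, was found for 122 genes (16.4%), with a median of 123 bases between the starts. This arrangement was present in 41 of 114 other named genes (36.0%), 71 of 452 clone-named (15.7%), 10 of 162 LINC-numbered (6.17%) and 0 of 14 microRNA hosts. LINC01184, with 451 reads, is an example, and its start lies 594 bases from that of SLC12A2, an ion cotransporter gene. The summed count was similar by position, with medians of 22.6 for diverging and 24.9 for other genes, and of 24.8 for genes over 10 kb away and 23.7 for nearer ones. Exons of 84 of 1025 transcripts (8.20%) overlapped a protein-coding exon on either strand, 42 of them on the same strand, and this included 2 of the 50 transcripts with the most reads. Transcripts of LINC01184 and MAPKAPK5-AS1 overlap coding exons on the opposite strand, though not their leading transcripts. Without strand, reads in these stretches cannot be assigned to the lincRNA with certainty.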

How the data were processed

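MDA-MB-231 libraries, 2 with DMSO and 2 with 10 µM KH-3 for 24 h by the sample labels, were made by the authors with a kit for mRNA. The authors mapped reads with STAR (default parameters) to GENCODE release 24 transcripts, counted with eXpress and ran DESeq2; versions are not given in the sources used here. The deposited level of a transcript is a signal, read counts that the authors normalized and averaged across libraries. No column holds a single library, so depth and spread are unknown and no test was run. Its 3 columns of the authors' own comparison (log2 fold change, p-value and q-value) were not used.

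LincRNA rows were taken by the type in the table and genes by symbol. Reads per kilobase are the mean count over the table's length. Transcripts were matched by ID without version to hg38 with GENCODE release 44, which gave 1025 of the 1037 lincRNA transcripts (98.8%), 711 (69.4%) of them with equal length. Exons, positions and sequences come from that release, and motif densities by type from transcripts of equal length. MicroRNAs came from RefSeq, and sequences were aligned with blastn 2.17.0 (e-value limit 1e-10). Python 3.11.15, pandas 2.3.3 and scipy 1.17.1 were used, and the scripts were tested on simulated data. Overlaps were found with bedtools 2.31.1.

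Named in the text are the 15 genes with the most reads, the 5 highest of each naming class, the 5 transcripts highest per kilobase with a count of at least 50, the 3 longest and 3 shortest, the 5 genes with the most transcripts, and listed members of the gene lists, except for 1 gene that is not reported here. Hosts, sequence pairs, motif leaders and diverging genes were chosen after their values were seen. The members and lists were chosen with earlier results of these data known. The alternatives were other filters, gene-level summaries, length scales and distances.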

Additional observations from a re-analysis of the deposited data

How the results depend on the processing

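Of 25 alternatives, 10 left a value within its margin, 14 moved it further, and 1 turned its direction. The margin was 1.5 times for the number of transcripts and the NEAT1 ratio, and otherwise a 95% interval of the value over transcripts, genes or reads, which is no replicate error. At a mean count of at least 50 the number of lincRNA transcripts was 229. The median count was 24.4 when summed over each gene and 26.02 at a mean of at least 10. The median length was 1518 in release 44 and 1591 over the leading transcript of each gene. The share in the 10 highest was 22.3% per kilobase, 36.9% over genes and 28.4% without MALAT1 and NEAT1. The correlation of length with abundance turned from 0.31 to -0.41 per kilobase, a measure with length in its denominator. Over the leading transcript of each gene, the ratio to the coding median per kilobase was 0.210 against 0.513, and single-exon transcripts were 29.1%. The median AUUUA density was 1.27 per kilobase in transcripts of at least 1000 bases. The share of genes far from coding genes was 54.3% at 5 kb and 27.6% at 50 kb. The median count was 20.4 without transcripts that share exons with coding genes, and the ratio of NEAT1-002 to NEAT1-001 per kilobase was 4.22 with lengths of release 44, both alternatives chosen after seeing the data. No paired analysis was possible because the table holds no values per library. Depth is unknown, so no interval could be given for any count.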

Other observations

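Names and types have moved between the release used for counting and release 44. Of the 742 genes found, 730 are of type lncRNA there, 10 are transcribed pseudogenes and 2 are protein-coding. The protein-coding pair are AC093323.3, on chromosome 4 with 3 listed transcripts of 61.8 to 74.9 reads, and BLACAT1, on chromosome 1 with 10.96 reads. Of the 452 clone-named genes found, 64 now carry a LINC number, 64 end in DT, for divergent transcript, and 289 still have no symbol. Of 49 genes named AS in the table, 23 are now named DT. Leaving out SNHG genes went by the older symbols, so LINC02001 and AC005682.5, now SNHG30 and SNHG26, stayed among the lincRNAs. Any host of small nucleolar RNAs under a symbol without SNHG was likewise kept.

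Transcript lengths also moved. Of 1025 transcripts, 291 are longer in release 44 and 23 are shorter, with a median ratio of 1.14 where the length changed and a highest ratio of 15.5, and 59 are more than 2 times longer. Reads per kilobase of those transcripts rest on the older, shorter models. MALAT1-001 has 8708 bases in the table and 10434 in release 44, and NEAT1-002 has 1811 and 3441. HCG11, with 3130 and 5696 bases, holds its 16 UGUANAUA matches in the longer model.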
